A study of Gallus gallus with 6 samples.

Results

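The 200 most abundant non-Ensembl loci of the chicken eyelid are described here, out of 2272 such loci and 17780 loci in all. Their identifiers, such as Novel00773, end in a number from 1 to 2272, whereas the other 15508 loci carry Ensembl identifiers. The 200 members were chosen on their measured levels. Levels in FPKM, which relates the fragments of a locus to its length and to the size of the library, were first transformed to log2(FPKM + 1). Loci whose birds did not overlap between the eyelid colours and whose colour means differed by 0.8 or more on that scale were set aside, and this removed 31 loci. Of the 2241 left, those with the highest mean FPKM over 6 libraries were kept.

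Eyelid RNA was sequenced from 6 birds of the Lindian chicken, a native breed of China, killed at 30 weeks of age. Black eyelids were carried by 3 birds and light-yellow eyelids by 3, and the labels give no allele, sex or treatment. Each bird gave 1 library, so the replicates are separate birds. The study asked which transcripts go with dark or pale colour of the eyelid.

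Transcript assembly from RNA-seq reads can define loci that lie outside the gene models of a reference annotation. Such loci can be protein-coding genes that the models lack, long non-coding RNAs, or exons and untranslated ends of genes that are already known under another name. The eyelid is a fold of skin with epidermis, dermis, muscle and conjunctiva, and melanocytes give it dark colour. The files name, place and describe none of the members, and the gene name table used here holds neither kind of identifier, so no locus could have been looked up in it. No function, position or sequence is therefore given for any member, and a cell type could not be checked through marker genes.

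Recovered read totals ran from 17116783 to 20621850 per library. The labels do not say if a unit counted here as a read is a single read or a pair. Recovered reads of the loci made up 99.55% to 99.60% of these totals, so few reads outside the loci are included. A share of all reads is given here as a share of these totals. In every bird all 200 members had a value above 0, with 39 to 286660 reads per member and library and a median of 860.5. Counting error of a single library at a member's mean read number had a median of 3.28%, against a median coefficient of variation over the 6 birds of 28.5%. In 1 member the variation over birds was under 2 times its counting error. The libraries therefore differed by more than counting noise in nearly all members. With a single library per bird, differences between birds and between library preparations cannot be told apart. Reads are not independent molecules, so these errors cover counting only.

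A few members held much of the signal. Their summed level was 3.61%, 5.74% and 5.62% of all FPKM in black-eyelid birds 1, 2 and 3, against 6.91%, 4.17% and 4.06% in light-yellow birds 1, 2 and 3. The share averaged 4.99% ± 1.19 in black eyelids and 5.05% ± 1.61 in light-yellow eyelids (SD, n = 3 each), so the colours overlapped. As a share of all reads the members took 3.37% ± 0.78 in black and 3.56% ± 1.02 in light-yellow eyelids (SD, n = 3 each). The sum of the members over all birds rested to 27.8% on a single locus, Novel00773, and 9 members held 50% or more of it. Mean levels ran from 8844 FPKM down to 27.1 FPKM, with a median of 53.2 FPKM. By mean level, 2 members reached 1000 FPKM, 5 lay between 500 and 1000 FPKM, 41 between 100 and 500 FPKM, 59 between 50 and 100 FPKM, and 93 below 50 FPKM. Among all 17780 loci, 2 members ranked within the first 100 and 59 within the first 1000.

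Novel00773 ranked 2 among all loci by mean level. It had 3991, 9237 and 9190 FPKM in black-eyelid birds 1, 2 and 3, against 22403, 4139 and 4103 FPKM in light-yellow birds 1, 2 and 3. Light-yellow bird 1 stood alone at the top, at 5.61 times the lowest bird, and the other light-yellow birds lay beside black-eyelid bird 1. In that library this locus of 718 bases took 1.61% of all reads, and 0.287% to 0.663% in the other libraries. It ranked 8, 1 and 4 among all loci of black-eyelid birds 1, 2 and 3, against 2, 10 and 9 in light-yellow birds 1, 2 and 3. Without Novel00773, the members' share of all FPKM was 3.78% ± 0.74 in black and 3.54% ± 0.19 in light-yellow eyelids (SD, n = 3 each).

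Novel00796 came next, ranking 17 among all loci. Its levels were 2168, 3590 and 2181 FPKM in black-eyelid birds 1, 2 and 3, against 2802, 4797 and 2657 FPKM in light-yellow birds 1, 2 and 3. Here light-yellow bird 2 was highest, and the colours overlapped. The order of birds thus differed between the 2 most abundant members.

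Novel00791 and Novel00778 repeated the low level in black-eyelid bird 1. Novel00791 had 242, 967 and 1755 FPKM in black-eyelid birds 1, 2 and 3, against 1314, 388 and 451 FPKM in light-yellow birds 1, 2 and 3. For Novel00778 the values were 243, 1052 and 927 FPKM in the black-eyelid birds, against 1112, 507 and 369 FPKM in the light-yellow birds. In both loci black-eyelid birds 2 and 3 and light-yellow bird 1 were high, and the other 3 birds were low, whatever the eyelid colour.

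Novel00938 was the only one of the 12 most abundant members whose colours did not overlap. It was at 622, 886 and 769 FPKM in black-eyelid birds 1, 2 and 3, against 495, 535 and 614 FPKM in light-yellow birds 1, 2 and 3. All black-eyelid birds were above all light-yellow birds, though the nearest pair differed by little, and its log2 difference of 0.46 lay under the 0.8 of the rule. Novel02187, of 4553 bases, was at 306, 949 and 738 FPKM in the black-eyelid birds, against 450, 510 and 370 FPKM in the light-yellow birds. Black-eyelid bird 1 was again the lowest and birds 2 and 3 the highest.

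The remaining 6 of the 12 had means of 388 to 526 FPKM. Novel00408, Novel01207, Novel01446 and Novel00603 were highest in light-yellow bird 1, at 731, 645, 476 and 515 FPKM. Novel00806 was highest in black-eyelid bird 3, at 706 FPKM, and Novel00793 in light-yellow bird 2, at 551 FPKM. In each of these 6 the colours overlapped, and the highest bird was 1.45 to 2.84 times the lowest.

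**Figure D1:**
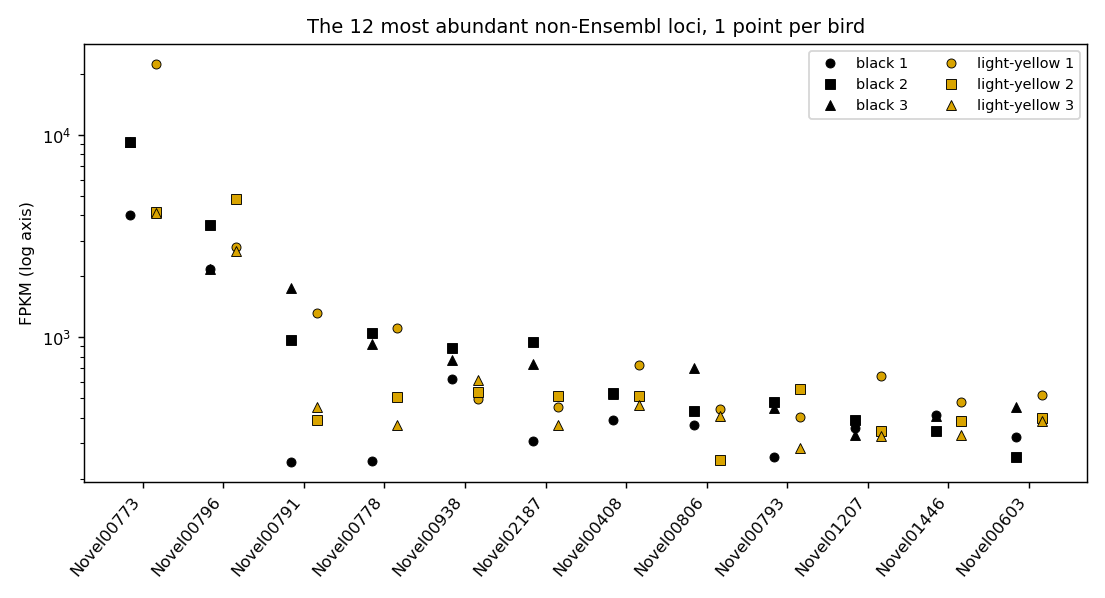
FPKM (log axis) of the 12 most abundant members, 1 point per bird, black-eyelid birds on the left of each position and light-yellow birds on the right; points of equal level cover each other. Novel00773 stands highest, with light-yellow bird 1 at 22403 FPKM, and the colours overlap in 11 of the 12.

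High levels were gathered among a run of identifier numbers. The rule did not use the number, and the labels do not say what order the numbers follow. In steps of 100 numbers, 701 to 800 held 22 members and 49.0% of the summed FPKM of all members. The other full steps held 1 to 16 members and each 0.13% to 4.26% of the sum. Of the 12 most abundant members, Novel00773, Novel00778, Novel00791, Novel00793 and Novel00796 lay in that step. By bird, its 22 members took 38.7%, 49.1% and 46.4% of the members' FPKM in black-eyelid birds 1, 2 and 3, against 62.9%, 45.6% and 37.0% in light-yellow birds 1, 2 and 3. Much of this was Novel00773, which alone took 27.8% of the summed FPKM of all members. By bird it took 18.9%, 26.6% and 25.3% in the black-eyelid birds, against 45.7%, 16.3% and 16.8% in the light-yellow birds. Black-eyelid bird 1 was the lowest bird in 11 of these 22 loci and the highest in 0, against 39.5% and 6% of all members. Black-eyelid bird 3 was the highest in 9 and light-yellow bird 1 in 5, against 41.0% and 25% of all members. The lean toward these birds was thus also found over all members. Light-yellow bird 2 was the lowest in 2 and the highest in 4, against 29.5% and 3.5% of all members. Between 1401 and 2100, each step held 11 to 16 members.

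**Figure D2:**
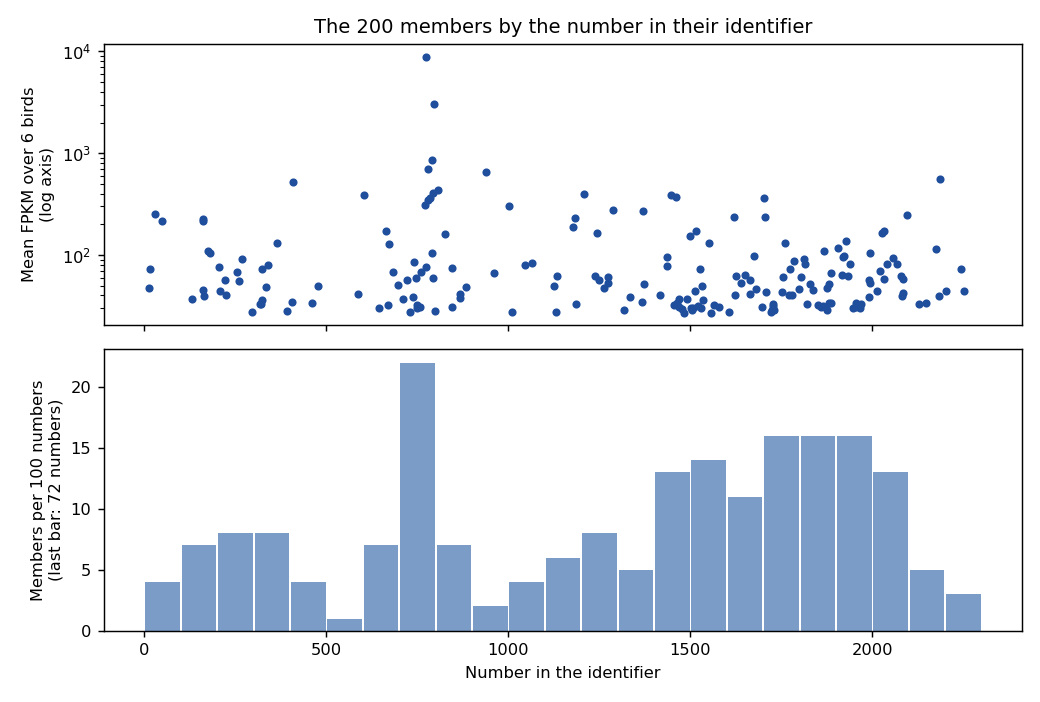
Mean FPKM over 6 birds (log axis, upper panel) and number of members in each step of 100 numbers (lower panel) against the number in the identifier. The step from 701 to 800 holds 22 members, and both loci above 1000 FPKM are among them.

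Members with consecutive numbers sometimes shared a profile over the birds. There were 26 such pairs, made of 48 members, and the longest run was of 4, from 790 to 793. The Pearson correlation of log2(FPKM + 1) over the 6 birds had a median of 0.70 over these pairs and of 0.41 over all 19900 pairs of members. It was over 0.9 in 11.5% of the consecutive pairs, 3 in number, and in 8.85% of all pairs. It was below 0 in 2 consecutive pairs. All loci of a pair share the same 6 libraries, and 6 points give a loose estimate, so these values are a description.

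The closest pair was Novel00160 and Novel00161, next to Novel00162, with Novel00161 named here after its values were seen. Novel00160 was at 89.1, 155 and 435 FPKM in black-eyelid birds 1, 2 and 3, against 551, 52.3 and 66.8 FPKM in light-yellow birds 1, 2 and 3. Novel00161 had nearly the same levels, at 97.3, 162 and 447 FPKM in the black-eyelid birds, against 460, 54.5 and 68.3 FPKM in the light-yellow birds. Novel00162 was lower with a similar order, at 9.86, 49.0 and 81.7 FPKM in the black-eyelid birds, against 107, 12.7 and 9.24 FPKM in the light-yellow birds. In all 3, light-yellow bird 1 and black-eyelid bird 3 were high and light-yellow birds 2 and 3 and black-eyelid bird 1 low. The correlation was 0.997 between Novel00160 and Novel00161 and 0.94 between Novel00161 and Novel00162. Between these, at 0.97, came Novel01967 and Novel01968, of 1257 and 1264 bases, named after their values were seen. From the lowest to the highest bird, Novel01967 spanned 0.41 and Novel01968 1.34 on the log2(FPKM + 1) scale, so their changes differed in size. The implied lengths of Novel00160, Novel00161 and Novel00162 differed, at 1665, 539 and 546 bases. Whether they belong to 1 transcript was not tested. The contrary case was Novel01436 and Novel01437, also named after their values were seen, at a correlation of -0.45.

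Levels varied over birds. From the lowest to the highest bird the range of a member had a median of 1.005 on the log2(FPKM + 1) scale, with quartiles of 0.73 and 1.46. The median was 0.93 over the 1273 other tested non-Ensembl loci and 0.73 over the 3333 Ensembl loci at or above the level of the lowest member. Those Ensembl loci were matched on level and not on length, and their median length was greater. Under 500 bases the median range was 1.02 in 151 of them and 1.10 in 69 members. From 2000 bases it was 0.69 in those Ensembl loci and 0.91 in the members. A range of 2 or more, which is 4-fold on that scale, was found in 19 members (9.5%), against 7.07% of the other non-Ensembl loci and 3.3% of those Ensembl loci. At the narrow end, 13 members (6.5%) spanned under 0.5, against 12.4% of the other non-Ensembl loci and 23.9% of those Ensembl loci. The other non-Ensembl loci had a median level of 3.69 FPKM, where adding 1 narrows a range more. Without the added 1, the median coefficient of variation was 28.5% in the members, 32.3% in the other non-Ensembl loci and 19.4% in those Ensembl loci. Whether the members or the other non-Ensembl loci varied more thus depended on the measure. Loci are not replicates, so no test was made between these classes. The rule set aside loci that stood apart between the colours, but only 2 of them reached the level of the members, and overlapping loci stayed in whatever their difference.

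Novel01850 had the widest range, 3.81 on the log2(FPKM + 1) scale. It was at 3.82, 35.8 and 56.2 FPKM in black-eyelid birds 1, 2 and 3, against 66.8, 12.02 and 17.6 FPKM in light-yellow birds 1, 2 and 3. Black-eyelid bird 1, with 39 reads, stood lowest, and light-yellow bird 1 was at 17.5 times its level. Novel00779 followed at 3.495, with 139, 367 and 153 FPKM in the black-eyelid birds, against 1186, 115 and 104 FPKM in the light-yellow birds. Light-yellow bird 1 was far above every other bird, and the remaining birds of its colour were the lowest of all.

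Novel01238 ran the other way. It was at 130, 25.9 and 10.6 FPKM in black-eyelid birds 1, 2 and 3, against 31.9, 109 and 64.9 FPKM in light-yellow birds 1, 2 and 3. The birds that were low in Novel00160 were high here, and the other 3 birds were low. Novel00799 was at 8.89, 15.4 and 33.1 FPKM in the black-eyelid birds, against 29.7, 7.17 and 76.1 FPKM in the light-yellow birds, and light-yellow bird 3 was the highest. In 4 members 1 bird was at 2 times or more the next: light-yellow bird 1 in 2, and black-eyelid bird 3 and light-yellow bird 3 in 1 each. Such a bird was found in 2% of the members, 5.58% of the other tested non-Ensembl loci and 0.78% of the Ensembl loci at the same levels.

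The steadiest members were Novel00748, Novel01366, Novel01264, Novel01698, Novel00049 and Novel00181, whose highest bird was 1.20 to 1.26 times the lowest. Novel00748, of 5804 bases, was at 32.9, 32.1 and 35.6 FPKM in black-eyelid birds 1, 2 and 3, against 29.5, 31.3 and 33.0 FPKM in light-yellow birds 1, 2 and 3. Novel00049, the most abundant of the 6, was at 216, 205 and 232 FPKM in the black-eyelid birds, against 223, 186 and 226 FPKM in the light-yellow birds. No bird stood apart in either locus. Steady members were therefore found at high and at low levels.

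**Figure D3:**
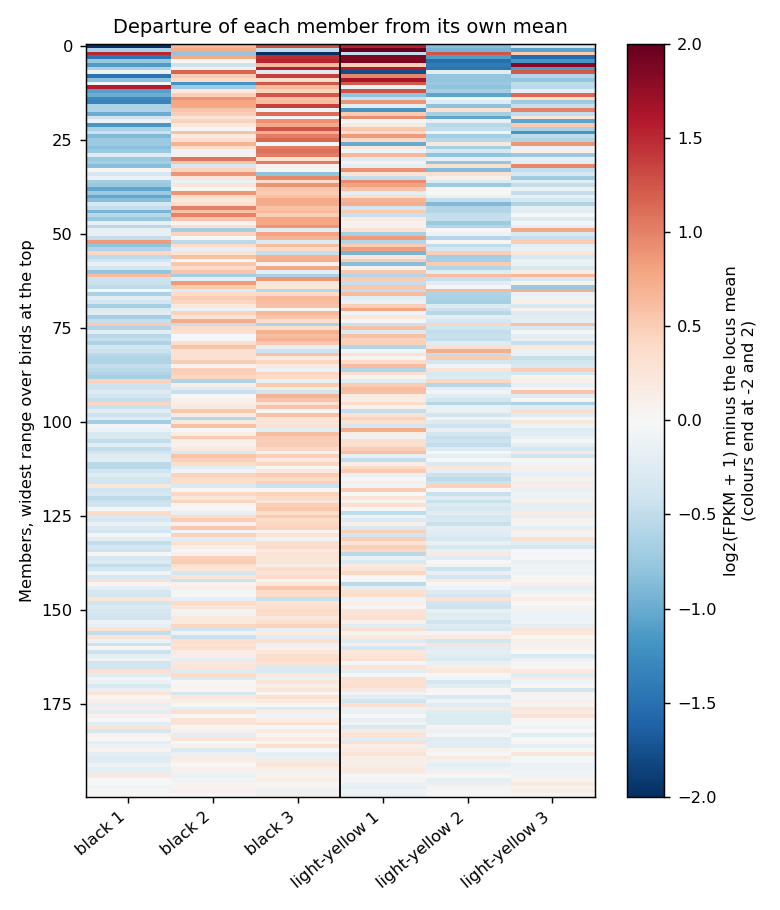
Departure of each of the 200 members (rows, widest range at the top) from its own mean over the birds, on the log2(FPKM + 1) scale, with black-eyelid birds on the left and light-yellow birds on the right of the line; colours end at -2 and 2. The median departure is -0.35 in black-eyelid bird 1 and 0.32 in black-eyelid bird 3, and -0.25 in light-yellow bird 2, so rows there are mostly blue, red and blue.

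The birds differed in how the members as a group stood. Black-eyelid bird 1 had the lowest level in 79 members (39.5%) and light-yellow bird 2 in 59 (29.5%). Black-eyelid bird 3 had the highest level in 82 members (41.0%) and light-yellow bird 1 in 50 (25%). Over the 13253 loci whose mean reached 1 FPKM, the corresponding shares were 17.3% and 14.5% for the lowest and 20.4% and 9.98% for the highest. The other tested non-Ensembl loci leaned the same way for black-eyelid bird 1, the lowest in 30.4%, and black-eyelid bird 3, the highest in 29.8%. In those loci light-yellow bird 2 was the lowest in 17.8% and light-yellow bird 1 the highest in 14.1%. Light-yellow bird 1 was the lowest bird in 37.1% of all tested loci but in 11.5% of the members. In the other tested non-Ensembl loci it was the lowest in 17.5%, and in the Ensembl loci at the same levels in 30.6%. FPKM depends on the library total, and after median-of-ratios rescaling light-yellow bird 1 had the highest level in 82 members and black-eyelid bird 3 in 63. Black-eyelid bird 1 was then the lowest in 84 and light-yellow bird 2 in 61. After rescaling, the highest and lowest birds were counted in the members only, so these counts have no background share.

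Across the members, the Spearman correlation between libraries was highest, at 0.928, for black-eyelid bird 1 with light-yellow bird 2. It was lowest, at 0.725, for black-eyelid birds 1 and 3. Over all tested loci the same 2 pairs were at 0.975 and 0.915, over a wider spread of levels. Loci within a library are not independent, so these values are given as a description.

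Length moved with this profile of the birds. The FPKM steps implied a length in bases for each of the 200 members, which is the length the authors divided by. It had a median of 705 bases and quartiles of 424.5 and 1272 bases, against medians of 1157 bases for the other tested non-Ensembl loci and 1699 bases for the Ensembl loci at the same levels. Under 500 bases were 69 members (34.5%), against 21.0% of the other non-Ensembl loci and 4.53% of those Ensembl loci. A length that is a multiple of 3, as a coding sequence without untranslated ends has, was found in 37.0% of the members and in 39.2% of those Ensembl loci. It was found in 33.5% of the other non-Ensembl loci and in 42.1% of all tested Ensembl loci. Many lengths are multiples of 3 without any coding sequence, so nothing about coding is read from these shares. FPKM divides by length, so ranking by FPKM favours short loci. Of the 200 members, 119 were also among the first 200 by recovered reads, a list with a median length of 1984 bases.

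The longest member, Novel00698, had 11032 bases. It was at 36.1, 54.98 and 73.8 FPKM in black-eyelid birds 1, 2 and 3, against 60.6, 37.3 and 41.1 FPKM in light-yellow birds 1, 2 and 3. Novel01275 and Novel01130 followed with 8818 and 5961 bases. Novel01665 was the shortest, at 178 bases, with 28.3, 71.2 and 46.7 FPKM in the black-eyelid birds, against 27.7, 33.2 and 41.1 FPKM in the light-yellow birds, from 88 to 217 reads per library. Novel01484 and Novel01526 had 187 and 204 bases. The colours overlapped in all 6.

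**Figure D4:**
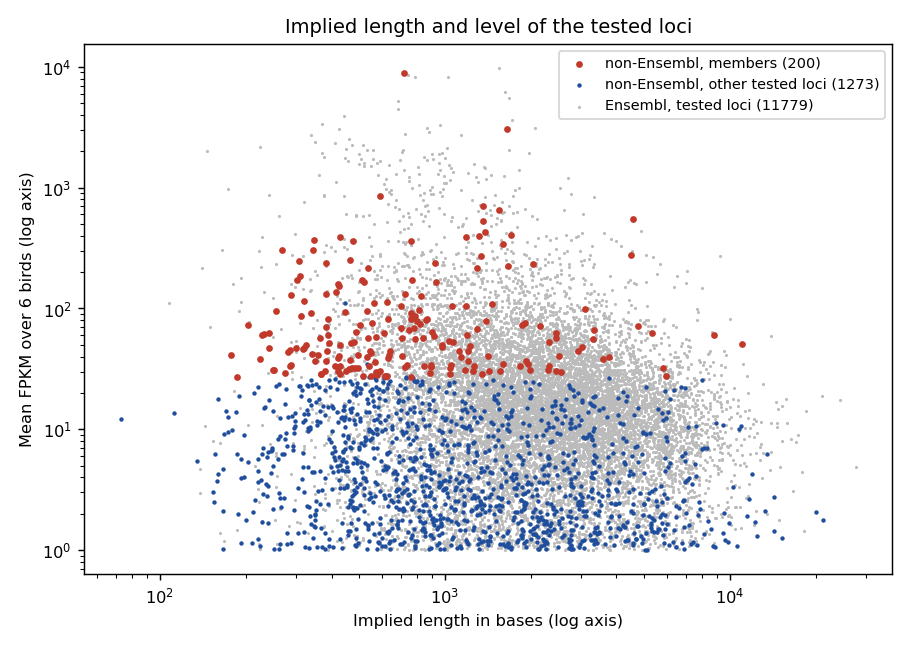
Mean FPKM over 6 birds against implied length in bases (both log axes) for the 200 members, the 1273 other tested non-Ensembl loci and the tested Ensembl loci. Members lie above 27.1 FPKM by the rule, and 69 of them are under 500 bases long.

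Each bird's level was expressed as its departure from the mean of the locus on the log2(FPKM + 1) scale, and the median was taken over loci of similar length. In the 69 members under 500 bases it was -0.43, 0.30 and 0.40 in black-eyelid birds 1, 2 and 3, against 0.20, -0.28 and -0.12 in light-yellow birds 1, 2 and 3. In the 25 members of 2000 bases or more it was 0.022, 0.046 and 0.13 in the black-eyelid birds, against -0.13, -0.0069 and 0.029 in the light-yellow birds. The medians over birds thus lay further from 0 in short members than in long ones. This concerns departures that members share: the median range of a single member was still 0.91 in the long ones, against 1.10 in those under 500 bases. Among the 151 Ensembl loci under 500 bases at the same levels, the values were -0.22, -0.060 and 0.15 in the black-eyelid birds, against 0.31, -0.13 and -0.029 in the light-yellow birds. The low values in black-eyelid bird 1 and light-yellow bird 2 and the high value in black-eyelid bird 3 recurred there at a smaller size, while black-eyelid bird 2 lay slightly below 0 and light-yellow bird 1 above its value in the members. In the 1366 such Ensembl loci of 2000 bases or more, they were 0.13, 0.020 and -0.071 in the black-eyelid birds, against -0.19, 0.040 and 0.080 in the light-yellow birds. In the other tested non-Ensembl loci, black-eyelid bird 1 was at -0.32 under 500 bases and at -0.047 from 2000 bases. A shift with length was thus not particular to the members. The part of length in the members' profile was not tested. Fewer cells of a type and less RNA per cell cannot be told apart in bulk tissue.

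**Figure D5:**
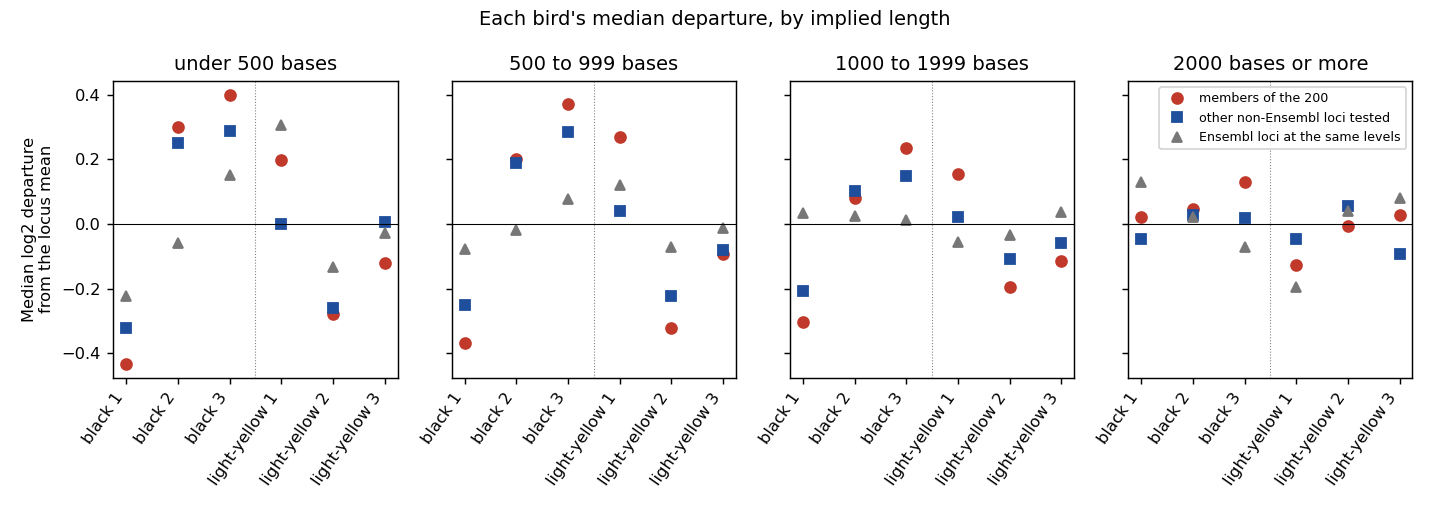
Median log2 departure of each bird from the locus mean, in 4 classes of implied length, for the 200 members, the other tested non-Ensembl loci and the Ensembl loci at the same levels; black-eyelid birds stand left of the dotted line and light-yellow birds right. Black-eyelid bird 1 is at -0.43 in members under 500 bases and at 0.022 in those of 2000 bases or more.

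Between the colours, the members were chosen by a rule that used this contrast, so the counts are a description and nothing is read from them. Of the 200, 133 had a higher mean in black eyelids and 67 in light-yellow eyelids, with a median log2 difference, black minus light-yellow, of 0.12. Over all tested loci 63.0% were higher in black eyelids, with a median of 0.065. Both depended on single birds. Without black-eyelid bird 3, 42.5% of the members were higher in black eyelids, with a median of -0.044, and without black-eyelid bird 1 they were 76.0%, with a median of 0.37. Over all tested loci the shares were 65.3% and 57.7% in turn, with medians of 0.079 and 0.059. Without light-yellow bird 1 the members' median was 0.25 and without light-yellow bird 2 it was 0.0063. The medians over all tested loci were then -0.0073 and 0.088. Without light-yellow bird 1, 73.0% of the members and 49.2% of all tested loci were higher in black eyelids. After median-of-ratios rescaling 59.5% of the members and 52.3% of all tested loci were higher in black eyelids, and after quantile normalization 64.0% and 49.2%.

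Colours did not overlap in 10 of the 200 members, 5 higher and 5 lower in black eyelids. The background over all tested loci was 6.5%, of which 4.34% were higher and 2.17% lower in black eyelids. With limma on log2(FPKM + 1), 0 of the 200 members passed at an adjusted p under 0.05 (Benjamini-Hochberg over 13253 loci), against a background of 0.0302%, or 4 loci. Without adjustment, 9 of the 200 members had a limma p under 0.05, against a background of 344 of 13253 loci, or 2.6%. With black-eyelid bird 1, 2 or 3 left out, that number was 47, 2 and 5 in turn, and with light-yellow bird 1, 2 or 3 left out it was 12, 8 and 2. Over all tested loci the number was 1218 of 13258, 249 of 13222 and 197 of 13169 with the black-eyelid birds left out in turn. With the light-yellow birds left out in turn it was 409 of 13245, 243 of 13240 and 294 of 13244. With limma's voom on recovered reads 0 members passed, against 0.0528% of all loci. In that fit 7 of the 200 had an unadjusted p under 0.05, against 329 of 13252 loci, or 2.48%.

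Toward black eyelids, the largest mean differences belonged to Novel00790, Novel00883 and Novel00786, at 1.0004, 0.98 and 0.83 on the log2(FPKM + 1) scale. Novel00790 was at 56.8, 152 and 231 FPKM in black-eyelid birds 1, 2 and 3, against 76.3, 49.9 and 64.0 FPKM in light-yellow birds 1, 2 and 3. Black-eyelid birds 2 and 3 were above every light-yellow bird and bird 1 was among them, so the colours overlapped. Novel00883 was at 119, 23.6 and 62.1 FPKM in the black-eyelid birds, against 36.0, 22.3 and 27.1 FPKM in the light-yellow birds. Here bird 1 was the high one, unlike in Novel00790. Novel00786 was at 306, 461 and 630 FPKM in the black-eyelid birds, against 326, 297 and 161 FPKM in the light-yellow birds.

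Toward light-yellow eyelids, the largest were Novel01238, Novel01248 and Novel01460, at -0.85, -0.74 and -0.72. Novel01248, of 3297 bases, was at 44.6, 38.8 and 40.6 FPKM in black-eyelid birds 1, 2 and 3, against 81.1, 51.7 and 80.1 FPKM in light-yellow birds 1, 2 and 3. All light-yellow birds were above all black-eyelid birds, and it was the member without overlap that lay nearest to the 0.8 of the rule. Novel01460, of 347 bases, was at 189, 271 and 370 FPKM in the black-eyelid birds, against 298, 430 and 664 FPKM in the light-yellow birds, and the colours overlapped.

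At the edges of the rule, the last member was Novel01484, with a mean of 27.12 FPKM, and the next locus after it was Novel01937, with 27.00 FPKM. Among the loci set aside, the one nearest to a difference of 0.8 was Novel02115, at -0.85 and a mean of 2.496 FPKM. Only 2 of the 31 loci set aside had a mean at or above that of the last member. Novel01425 was at 36.9, 56.0 and 49.7 FPKM in black-eyelid birds 1, 2 and 3, against 21.2, 22.2 and 24.0 FPKM in light-yellow birds 1, 2 and 3, a difference of 1.03. Novel00342 was at 61.7, 53.4 and 79.5 FPKM in the black-eyelid birds, against 284, 101 and 87.1 FPKM in the light-yellow birds, a difference of -1.07.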

How the data were processed

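Per the labels' protocols, libraries were built with a NEBNext Ultra RNA kit from TRIzol-extracted total RNA. The authors deposited 1 table with an FPKM column per library. The submitters' processing notes name Cufflinks 2.1.1, DESeq 1.18.0, HTSeq 0.6.1 and TopHat without saying which step each served. Genome build, annotation, origin of the non-Ensembl identifiers and use of strand were not given in the sources used here. If strand was not used, overlapping and antisense loci share reads that cannot be told apart. Columns were matched to birds by sample description, and 0 were left over. The titles gave each bird's colour and number.

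Whole reads, library totals and locus lengths were recovered from the steps between FPKM values, whole within 0.02, for 17221 loci (99.8% of values above 0) and all 200 members. A unit called a read here may be a single read or a pair. Loci whose reads share an undetected factor come out too low. For the colours, limma 3.58.1 in R 4.3.3 was run on log2(FPKM + 1) over the 13253 loci whose mean reached 1 FPKM (mean-variance trend, two-sided). All members passed this filter. Adding 1 understates the change of low loci. Recovery and test were also run on simulated data, built from the recovered reads, lengths and totals with the same formula for FPKM. That run is therefore no independent check of the recovery in these data. Tables were handled in Python 3.11.15 with pandas 2.3.3 and numpy 2.4.6.

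The members and the comparisons were chosen with earlier results of these data known. Named loci were the 12 most abundant members, the 6 with the widest and the 6 with the narrowest range over birds, the 3 with the largest mean difference toward each colour, those at the edges of the rule, and the 3 longest and 3 shortest.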

Additional observations from a re-analysis of the deposited data

How the results depend on the processing

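The members past the threshold numbered 0 in every fit run. The rule had used this contrast and few loci passed in any fit, so nothing about the members is read from that. The members' share of all FPKM and their median range changed little. Leaving out each bird in turn gave a share of 4.64% to 5.30%, a median range of 0.91 to 0.99 and 14 to 19 loci at 4-fold or more. A range cannot widen when a bird is left out, so the median range and the 4-fold count could only stay or fall, from 1.005 and 19. Chosen again with 1 bird left out, 179 to 196 of the 200 members were the same, and ranked by recovered reads 119. Ranked by median FPKM 192 were the same, and 198 with no locus set aside. Over all loci, limma called 4, against 2 without a filter, 0 with the filter set at 5 FPKM (230 at an unadjusted limma p under 0.05), 7 with voom on recovered reads, and 0 to 9 with 1 bird left out, with 197 to 1218 at an unadjusted limma p under 0.05. Adding bird number as a replicate block left 0 loci and 0 members (limma, with 222 and 5 at an unadjusted p under 0.05). The labels do not pair birds by number, and deviations of same-numbered birds correlated at -0.51, -0.059 and -0.23. Where these counts moved, the cause was not tested. For 35 named members, 840 differences and ranges were recomputed, 40 moved, and 39 of those with a bird left out. A difference counted as moved past its standard error in the main fit. A range counted as moved past the members' median SD within colours, 0.39, which is not an error of the range. None of these differences had passed a test, and 45 of 490, in 19 members, changed sign.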
